A study of Drosophila melanogaster with 2 samples.

Results

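Follicle-like cells in which Ekar, a kainate-type glutamate receptor subunit known from the fly eye, was detected together with other neuronal or bristle genes were picked out of single-cell RNA-seq of Drosophila melanogaster ovaries. A barcode, the tag that marks the RNA of 1 captured cell, was a member if it carried at least 1 unique molecular identifier (UMI, 1 counted RNA molecule) of Ekar, a UMI of at least 2 of the 4 partner genes nAChRalpha6, dpr9, jv and CG42700, and no UMI of elav, Mhc or zfh1. Barcodes were kept if they had a minimum of 500 detected genes and 1000 UMIs and if mitochondrially encoded genes gave at most 20% of their UMIs, and 298 of the 19009 kept barcodes were members. All other kept barcodes are called the rest. The members numbered 173 of 9878 kept barcodes at 6 weeks and 125 of 9131 at 1 week.

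Whole ovaries of w1118(x);; females, a laboratory strain with white eyes, were taken at 6 weeks and at 1 week after eclosion, and both groups carried that same genotype. Females were collected as virgins and kept with males, and the ovaries were not enriched for their anterior region, the place of the stem cells. Each age was 1 library made with a 10x Genomics 3′ kit. The labels give the same kit version for both libraries and the methods name 2 versions, and age and any other difference between the libraries cannot be told apart. With 1 library per age no difference has a replicate check and no test was made. The intervals given below are exact 95% intervals and cover counting error only. Members were chosen by measured values, so every level of the 5 detected genes of the rule and every absence of the 3 excluded genes is a description of that choice.

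Follicle cells are the somatic epithelium that wraps each germline cyst. They first divide, then stop dividing and duplicate their DNA without mitosis under Notch signalling, and later make yolk proteins, ecdysteroid hormone and the vitelline membrane and chorion layers of the eggshell. Kainate receptors and nicotinic acetylcholine receptors are ion channels best known at synapses, and dpr proteins are cell-surface immunoglobulin proteins that bind DIP proteins on other cells.

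Ekar (chromosome 4, 636131 to 646556, BDGP6) was scarce even in the members. Of the 173 members at 6 weeks, 128 had 1 Ekar UMI, 36 had 2 and 9 had 3 or more, and of the 125 at 1 week, 95 had 1, 21 had 2 and 9 had 3 or more. The highest count in any member was 4 Ekar UMIs at 6 weeks and 3 at 1 week. Most members therefore entered the set on a single Ekar molecule.

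nAChRalpha6 (2L, 9793317 to 9886250), a nicotinic receptor subunit, was detected in 40.5% of the members at 6 weeks and 45.6% at 1 week, so fewer members had it than lacked it. The same held for dpr9 (3R, 15054930 to 15077206), with 41.6% at 6 weeks and 49.6% at 1 week. More members passed through jv (3L, 6563197 to 6589479), which encodes a protein of actin bundles in bristles, with 71.7% and 61.6%, and through CG42700 (2R, 12279771 to 12300795), with 76.9% at 6 weeks and 75.2% at 1 week. The pair of genes in the working name of these cells thus described a minority of them, and jv and CG42700 carried most of the entries.

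**Figure D1:**
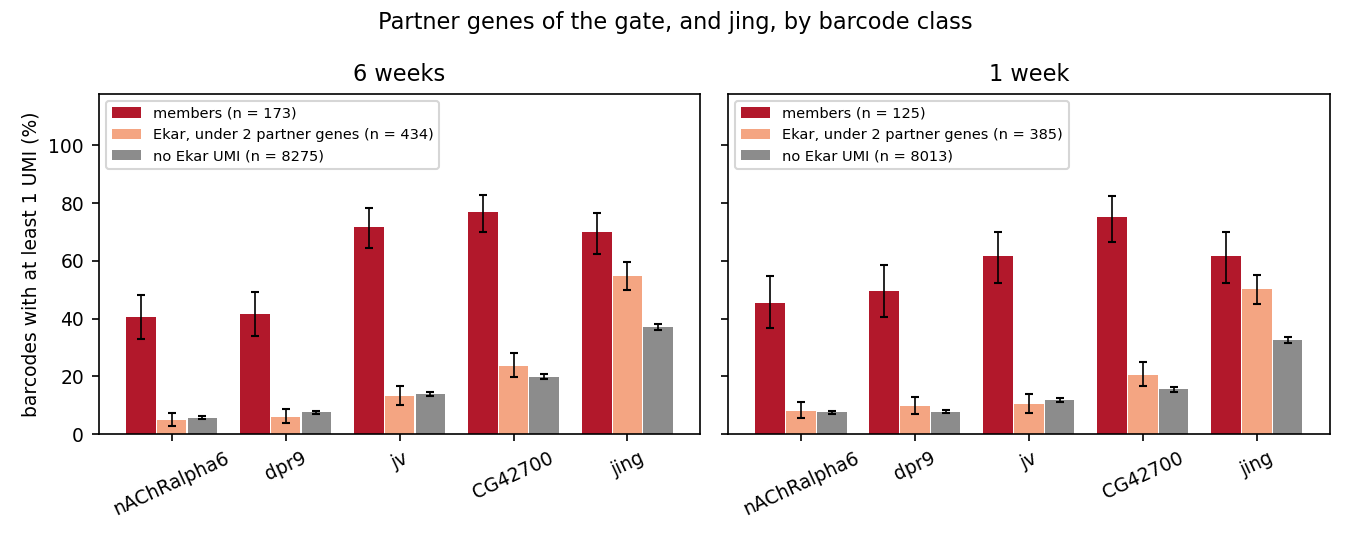
Share of barcodes (percent, y axis) with a UMI of each partner gene and of jing (x axis) at 6 weeks (left) and 1 week (right), in members, in barcodes with Ekar and fewer than 2 partner genes, and in barcodes without Ekar; bars are Clopper-Pearson 95% intervals. The 4 partner genes are high in members by the rule (nAChRalpha6 40.5% and 45.6%), while jing was not used by it but was listed with earlier results of these data known.

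Just inside the threshold, 128 members at 6 weeks and 91 at 1 week had exactly 2 partner genes, 37 and 28 had 3, and 8 and 6 had all 4. Just outside it, 207 barcodes at 6 weeks and 187 at 1 week had Ekar, no excluded gene and 1 partner gene, and 227 and 198 had no partner gene. These 434 barcodes at 6 weeks and 385 at 1 week are called near barcodes below and are counted in the rest. The exclusion of elav, which encodes a neuronal RNA-binding protein, removed more barcodes than the other two excluded genes. Of 491 barcodes at 6 weeks with Ekar and at least 2 partner genes, 279 had an elav UMI, 64 a UMI of Mhc (muscle myosin) and 27 a UMI of zfh1 (a transcription factor of stem and escort cells). Of 306 such barcodes at 1 week, 153 had elav, 36 Mhc and 23 zfh1.

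An elav UMI was common in all kinds of barcodes. It was present in 47.7% of the kept barcodes at 6 weeks and 40.1% at 1 week, and in 52.5% and 48.2% of barcodes of a muscle class defined further below by muscle genes. The synaptic gene nSyb was detected in 4.06% of kept barcodes at 6 weeks and 3.25% at 1 week, and Syt1 in 0.537% and 0.361%. elav was therefore detected far more widely than these synaptic genes.

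The rule reads UMIs, and members were deeper than other barcodes. Median depth was 19713 UMIs (range 1325 to 88391) in members against 12531 in the rest at 6 weeks, and 17295 (1495 to 65664) against 10606 at 1 week. No doublet caller was run. Among members, 28 at 6 weeks (16.2%) and 19 at 1 week (15.2%) lay above the 95th percentile of UMIs of their library, against 4.80% and 4.86% of the rest. Shares of barcodes with a UMI are for that reason also given after thinning, in which every barcode was drawn down to 5000 UMIs and shallower ones (29.6% of kept barcodes at 6 weeks and 27.9% at 1 week) were left out, which left 151 of the members at 6 weeks and 107 at 1 week. Mitochondrially encoded UMIs were a median of 5.89% in members against 4.41% in the rest at 6 weeks and 5.69% against 6.18% at 1 week. Apart from values given at a like depth, the part of depth and of doublets in the values below was not tested.

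Members made up 1.75% of kept barcodes at 6 weeks (1.50 to 2.03) and 1.37% at 1 week (1.14 to 1.63). The log2 ratio of these shares, 6 weeks over 1 week, was 0.36 (0.02 to 0.70). When the rule was applied to thinned barcodes, 41 of 6957 barcodes passed at 6 weeks (0.589%, 0.423 to 0.799) and 26 of 6582 at 1 week (0.395%, 0.258 to 0.578). The interval of the thinned log2 ratio, -0.17 to 1.35 around 0.58, included 0, so a difference in share was not detectable at equal depth. The libraries shared 178 barcodes, 26 of them kept in both, and none was a member in both.

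Background was read in barcodes of other cell types. The muscle class had at least 5 UMIs of at least 4 of 6 muscle genes, and the gut and tubule class had at least 4 of 7 and the germline class at least 4 of 5 of their marker genes. Ekar had a UMI in 10 of 341 barcodes of the muscle class at 6 weeks (2.93%, median depth 3499 UMIs) and in 3 of 199 at 1 week (1.51%, 2810 UMIs). In the gut and tubule class it had a UMI in 4 of 136 (2.94%, 20378 UMIs) and 17 of 280 (6.07%, 18599 UMIs). Over all kept barcodes the share was 16.2% at 6 weeks and 12.2% at 1 week, above both classes, but the muscle class was shallower. After thinning, Ekar had a UMI in 7.10% of all barcodes at 6 weeks and 5.82% at 1 week. The muscle class then had 0 of 98 and 2 of 32 (6.25%), and the gut and tubule class 0 of 114 and 4 of 238 (1.68%). At equal depth Ekar was thus rarer in the gut and tubule class at both ages, and in the muscle class at 6 weeks only. In a small germline class Ekar had a UMI in 5 of 27 at 6 weeks (18.5%, 42778 UMIs) and 2 of 43 at 1 week (4.65%, 12858 UMIs). After thinning these were 0 of 26 and 1 of 37.

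jing (2R, 6502006 to 6621792), a zinc-finger transcription factor gene known from border cell migration, was listed as a marker of these cells but not used to choose them. The listing was made with earlier results of these data known, so the values of jing are a description. jing reached 65.1 CPM (UMIs summed over barcodes and scaled to 1000000) in members against 48.7 in the rest at 6 weeks, and 71.4 against 45.1 at 1 week, log2 ratios of 0.42 (0.23 to 0.60) and 0.66 (0.43 to 0.88). After thinning, jing was detected in 31.8% of members against 21.5% of the rest at 6 weeks, and in 25.2% against 19.0% at 1 week. At 1 week the members' interval, 17.3 to 34.6, included the share of the rest. Near barcodes had 27.1% at 6 weeks and 26.8% at 1 week, within the intervals of the members' shares, so a difference between members and near barcodes in jing was not detectable.

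The partner genes also went together with Ekar in shallow, evenly thinned barcodes. CG42700 was detected in 28.3% of thinned barcodes with an Ekar UMI against 10.9% of those without at 6 weeks, and in 19.3% against 8.05% at 1 week. For jv the shares were 15.2% against 7.74% at 6 weeks and 12.5% against 6.76% at 1 week. nAChRalpha6 had the lowest shares, with 6.07% against 2.83% and 6.53% against 3.92%. All barcodes, members included, enter these shares, so they are a description.

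Markers of the follicle lineage were present in the members. tj, a transcription factor of somatic gonad cells, was detected in 82.1% of members against 62.2% of the rest at 6 weeks and in 85.6% against 65.3% at 1 week. Its level was nearly the same on both sides, with 190 CPM against 183 at 6 weeks and 259 against 239 at 1 week. At least 2 of tj, eya and Fas3 were detected in 90.2% of members at 6 weeks and 80.0% at 1 week. After thinning that share was 45.7% in members against 56.3% in the rest at 6 weeks, and 56.1% against 53.1% at 1 week, so at equal depth the members were below the rest at 6 weeks, with an interval of 37.6 to 54.0, and their interval at 1 week included the rest. Of the 10 genes listed for the follicle lineage, 4 were higher and 5 lower in members than in the rest in both libraries. The share of all genes that were higher or lower in both at any fold was not counted. The list medians were log2 -0.27 at 6 weeks and -0.03 at 1 week, against -0.41 and -0.40 for all genes tested. Follicle markers were thus present in the members, and the list as a whole did not mark them out from the rest. Single genes of the list did differ. After thinning at 1 week tj was detected in 70.1% of members (60.5 to 78.6) against 59.9% of the rest. Near barcodes had 65.2%, within the members' interval. At 6 weeks the members' interval for tj included the share of the rest. The values of br are described below.

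Combinations of defining genes of neurons, hemocytes, germline and gut were not found in the members and were rare in the rest. No member had UMIs of 2 genes of nSyb, brp and Syt1 (neurons), of Hml, He and NimC1 (hemocytes), of vas, nos and osk (germline) or of mex1, GATAe and mesh (gut). In the rest the shares were 0.309%, 0.165%, 0.464% and 1.37% at 6 weeks. At 1 week they were 0.466%, 0.444%, 0.655% and 2.91%. The members' intervals, 0 to 2.11% and 0 to 2.91%, included these shares or, for gut at 1 week, ended beside it. A count of 0 thus does not set the members apart. Single UMIs of nSyb were found in 14 members at 6 weeks and 10 at 1 week, and after thinning in 2.65% of members against 1.67% of the rest and 2.80% against 1.54%, with intervals of the members that included the rest. A count of 0, taken as up to 3 barcodes, allows such UMIs in up to 1.73% of the members at 6 weeks and 2.40% at 1 week, which limits barcodes with UMIs and not cells that express the genes. At least 2 of slbo, sn and puc (border cells) were detected in 30.1% of members against 17.3% of the rest at 6 weeks. At 1 week the shares were 31.2% against 16.7%. After thinning they were 5.30% against 5.94% and 11.2% against 6.63%. For upd1, upd3 and neur (polar cells) the full-depth shares were 8.09% against 6.90% and 2.40% against 5.41%. After thinning, 0 of 151 members (0 to 2.41%) had at least 2 of these against 2.66% of the rest at 6 weeks. At 1 week the thinned shares were 0.935% (0.024 to 5.10) against 3.15%. Of the 4 genes listed for polar cells, 0 were higher and 3 lower in members in both libraries. At least 2 of Wnt4, Wnt6 and ptc (escort cells) were found in 1 member at 1 week. By summed UMIs, all 7 tested genes of the gut and tubule list and all 7 of the muscle list were at least 2-fold lower in members than in the rest in both libraries, as were 5 of 6 germline genes, 4 of 5 escort genes, 3 of 5 hemocyte genes, 1 of 2 fat body genes, 1 of 2 spermatheca genes and 2 of 8 neuronal genes. The exclusion of barcodes with elav, Mhc or zfh1 sets the low muscle, escort and neuronal genes at least in part, and they are a description. Some listed genes were common in members all the same, among them ptc of the escort list in 48.6% of members at 6 weeks and 40.8% at 1 week, fax of that list in 52.0% and 50.4%, srp of the hemocyte list in 35.3% and 27.2%, and FASN1 of the fat body list in 57.8% and 52.8%. The summed level was 114.9 CPM in members against 483 in the rest at 6 weeks and 103 against 403 at 1 week for the escort list, and 56.8 against 63.3 and 51.4 against 60.4 for the fat body list, nearly all of it FASN1, a fatty acid synthase gene. Over all 9128 genes tested, 1754 (19.2%) were that much lower in both libraries, and 81 (0.887%) that much higher. Of the 81, 73 had over 50% of their UMIs in 10 members in both libraries, 13 had a UMI in at least 25% of the members of each library, and 52 had both intervals above 0. The median gene was lower in members by log2 -0.41 at 6 weeks and -0.40 at 1 week.

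The rest includes cell types other than follicle cells. Of the 1754 lower genes, 890 had no UMI in the members of at least 1 library and 84 had a UMI in at least 25% of the other barcodes of each library. Among the widely detected genes, ordered by the higher of their ratios in the libraries, the lowest was MtnA, a metallothionein gene, with 25.7 CPM in members against 500 in the rest at 6 weeks and 21.7 against 651 at 1 week (log2 -4.28 and -4.91). It stood with vir-1, a gene induced by virus infection (-4.30 and -3.80), CG44325 (-4.06 and -3.29), Cys, a cystatin-like gene (-3.40 and -3.68), and SP1173 (-3.25 and -3.71). At full depth MtnA was detected in 29.5% of members against 31.4% of the rest at 6 weeks and 24.8% against 31.5% at 1 week. For vir-1 the shares were as close, with 32.4% against 33.9% and 28.8% against 25.8%. CG44325, Cys and SP1173 were detected in a smaller share of members than of the rest at both ages. All 13 tested antimicrobial peptide genes were at least 2-fold lower in both libraries, beside 19.2% of all genes. The summed level of their list was 19.9 CPM in members against 916 in the rest at 6 weeks and 6.37 against 336 at 1 week. Against only those other barcodes that had tj and none of elav, Mhc and zfh1, 280 of 7447 genes (3.76%) were at least 2-fold lower and 63 (0.846%) higher, and the 5 lowest genes were less far apart. There MtnA came to -1.05 and -1.45, vir-1 to -1.93 and -1.29, Cys to -1.25 and -1.57 and SP1173 to -1.04 and -1.82, while CG44325, at -0.94 and -0.46, was under 2-fold.

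Higher genes were led by the yolk proteins. Of the 15 leading genes, Yp3, Yp2 and Yp1 took 3 places, and all are X-linked genes for proteins that follicle cells and fat body secrete into the egg. Yp2 (X, 10050951 to 10052636) had 6866 CPM in members against 1920 in the rest at 6 weeks and 8405 against 2745 at 1 week, log2 ratios of 1.84 (1.82 to 1.86) and 1.61 (1.59 to 1.64). Yp1 (X, 10053811 to 10055498) had 2930 against 940 CPM at 6 weeks and 3316 against 1161 at 1 week. Yp3 (X, 13759546 to 13761547) had 390 against 107 CPM at 6 weeks and 861 against 211 at 1 week. All 3 yolk protein genes were thus at least 2-fold higher in members in both libraries, beside 0.887% of all genes.

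**Figure D2:**
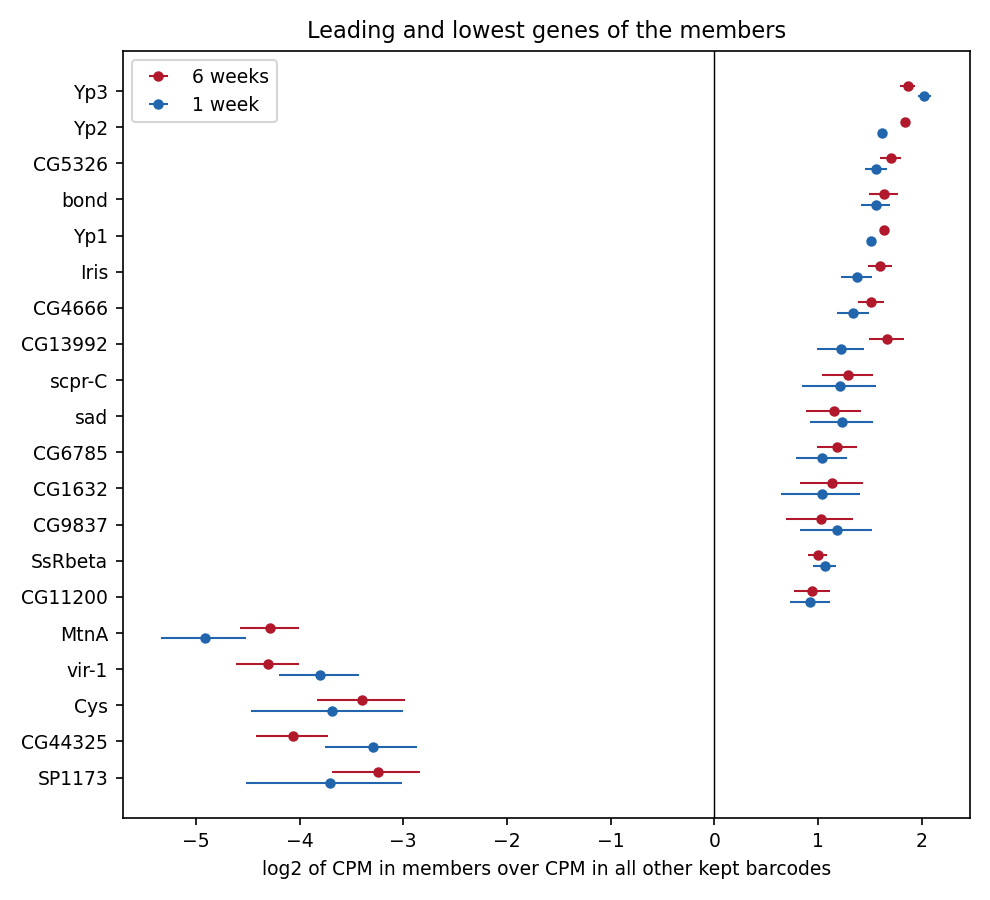
Log2 ratio of summed CPM in members over all other kept barcodes (x axis) of the 15 leading and 5 lowest named genes (y axis) at 6 weeks (red) and 1 week (blue); lines are exact 95% intervals and the vertical line is equality. Yp2 lies at 1.84 at 6 weeks and 1.61 at 1 week, MtnA at -4.28 and -4.91, and the ages fall on the same side for each gene.

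Yolk protein RNA was uneven among the members. The median member had 82.7 CPM of Yp2 at 6 weeks and 256 at 1 week, the highest had 4427 and 2499 UMIs, and the lowest had none. The 10 members with most Yp2 held 59.3% of the members' Yp2 UMIs at 6 weeks and 69.4% at 1 week, and for Yp1 the figures were 87.1% and 90.3%. After thinning, at least 2 of the 3 yolk protein genes were detected in 37.7% of members against 11.7% of the rest at 6 weeks, and in 45.8% against 17.1% at 1 week. Without barcodes above the 95th percentile of UMIs the log2 ratio of Yp2 was 2.32 at 6 weeks and 2.03 at 1 week, and among barcodes with UMI totals between the quartiles of the members it was 2.60 and 2.08, so it was as large without the deepest barcodes. Near barcodes had at least 2 yolk protein genes in 12.9% at 6 weeks and 29.8% at 1 week after thinning. Summed Yp2 in near barcodes was 2746 CPM at 6 weeks and 7397 CPM at 1 week, the second of these close to the members, so at 1 week high yolk protein RNA also marked barcodes with Ekar that the partner genes left out.

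Pairs of genes near each other on 3R led as well. CG5326 (3R, 22532174 to 22539919) and bond (3R, 22550680 to 22556494) belong to the family of fatty acid elongases. CG5326 had 232 CPM in members against 71.4 in the rest at 6 weeks and 311 against 106 at 1 week. For bond the values were 112 against 36.2 CPM at 6 weeks and 190 against 64.5 at 1 week. Both were also detected more often after thinning, CG5326 in 39.7% of members against 14.5% of the rest at 6 weeks and 42.1% against 18.5% at 1 week.

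Iris (2L, 1132332 to 1134098), a gene derived from a retroviral envelope, was less confined to a few members than the yolk proteins. It had 167 CPM in members against 55.2 in the rest at 6 weeks and 166 against 64.1 at 1 week, and its 10 top members held 39.9% and 41.8% of its UMIs. After thinning it was detected in 37.1% of members against 11.3% of the rest at 6 weeks and 43.9% against 13.1% at 1 week, and in 13.4% and 23.8% of near barcodes. The other leading genes were CG4666, CG13992, scpr-C, sad, CG6785, CG1632, CG9837, SsRbeta and CG11200. CG6785 was spread over many members, with 32.5% of its UMIs at 6 weeks and 31.7% at 1 week in its 10 top members, and it was detected in 58.4% of members against 22.0% of the rest at 6 weeks and 60.0% against 23.4% at 1 week. After thinning its shares at 1 week were 22.4% against 12.6%. SsRbeta, a subunit of the complex that assists protein entry into the endoplasmic reticulum, stood at log2 1.00 and 1.07, and at 0.32 and 0.72 when only barcodes with UMI totals between the quartiles of the members were used. Against other tj-positive barcodes without the excluded genes, Iris came to 1.36 at 6 weeks and 0.94 at 1 week. There bond came to 1.33 and 1.00 and CG6785 to 0.98 and 0.82. Yp1, Yp2, Yp3, CG5326, CG1632 and CG9837 stayed at least 2-fold higher in both libraries in that comparison. The other leading genes were under 2-fold there in at least 1 library.

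sad (shadow) brought in ecdysteroid synthesis, in which the Halloween enzymes turn cholesterol into 20-hydroxyecdysone. sad, the enzyme of the 2-hydroxylation step, had 31.7 CPM in members against 14.2 in the rest at 6 weeks and 40.8 against 17.4 at 1 week (log2 1.15 and 1.23). spo, which acts early in the pathway, had 52.8 against 19.0 CPM at 6 weeks and 67.6 against 29.1 at 1 week. shd, which makes the final 20-hydroxyecdysone, had 22.9 against 5.82 CPM at 6 weeks and 16.2 against 7.39 at 1 week. Of the 6 genes listed for the pathway, all were higher in members in both libraries and these 3 at least 2-fold in both, beside 0.887% of all genes. Against other tj-positive barcodes without the excluded genes, sad came to 0.83 and 0.85, under 2-fold. The 10 top members held 64.6% of the spo UMIs at 6 weeks and 66.0% at 1 week. phm was higher by log2 1.84 at 6 weeks and 0.73 at 1 week, nvd by 0.29 and 0.42, and dib by 0.28 (-0.21 to 0.73) and 0.64 (-0.13 to 1.31), where the intervals of dib included 0. After thinning, at least 2 of spo, sad and phm were detected in 9.27% of members against 1.78% of the rest at 6 weeks and 8.41% against 2.08% at 1 week. The rest of the barcodes made the same RNAs at lower shares, and near barcodes had 2.29% and 6.25%.

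Vitelline membrane genes, which code for the inner eggshell layer, had most of their UMIs in few members. At least 1 UMI of the listed genes was found in 41.6% of members at 6 weeks and 78.4% at 1 week. Of the 7 listed, 4 were at least 2-fold higher in members than in the rest in both libraries and 1 lower, beside 0.887% and 19.2% of all genes. Vm26Ab had 1032 CPM in members against 278 in the rest at 6 weeks and 3114 against 915 at 1 week, with 97.1% and 97.6% of its UMIs in 10 members. After thinning, at least 2 of Vm26Aa, Vm26Ab and Vm34Ca were detected in 7.28% of members against 1.82% of the rest at 6 weeks and 14.0% against 6.19% at 1 week. Of the chorion genes of the outer layer, at least 2 of Cp36, Cp38 and Cp7Fb were found in 1 member at each age, against 0.392% of the rest at 6 weeks and 1.31% at 1 week. Single chorion genes were more frequent at 1 week, when Cp15 was detected in 16.8% of members against 16.4% of the rest and Cp36 in 10.4% against 6.67%. Cp38 then had a UMI in 0 members against 4.37% of the rest. Of 10 tested chorion genes, 0 were higher and 8 lower in members in both libraries, 5 of them at least 2-fold (19.2% of all genes). The summed level of the list was 6.23 CPM in members against 26.9 in the rest at 6 weeks and 22.5 against 2679 at 1 week.

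Genes detected in most members gave smaller but more even differences. br, the Broad zinc-finger transcription factor gene, was detected in 95.4% of members against 53.0% of the rest at 6 weeks and 96.8% against 54.8% at 1 week, and after thinning in 76.8% against 47.4% and 76.6% against 49.5%. Its level was 317 CPM in members against 208 in the rest at 6 weeks and 362 against 224 at 1 week, and the median member, with 331 and 343 CPM, was close to these sums. ndl (nudel), a gene for a secreted protease of the eggshell that patterns the embryo, was detected after thinning in 55.6% of members against 24.98% of the rest at 6 weeks and 57.0% against 30.1% at 1 week. ndl belonged to no list and was picked after its values were seen. Near barcodes had 61.4% and 61.3% for br and 32.0% and 43.5% for ndl, between the members and all other kept barcodes.

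**Figure D3:**
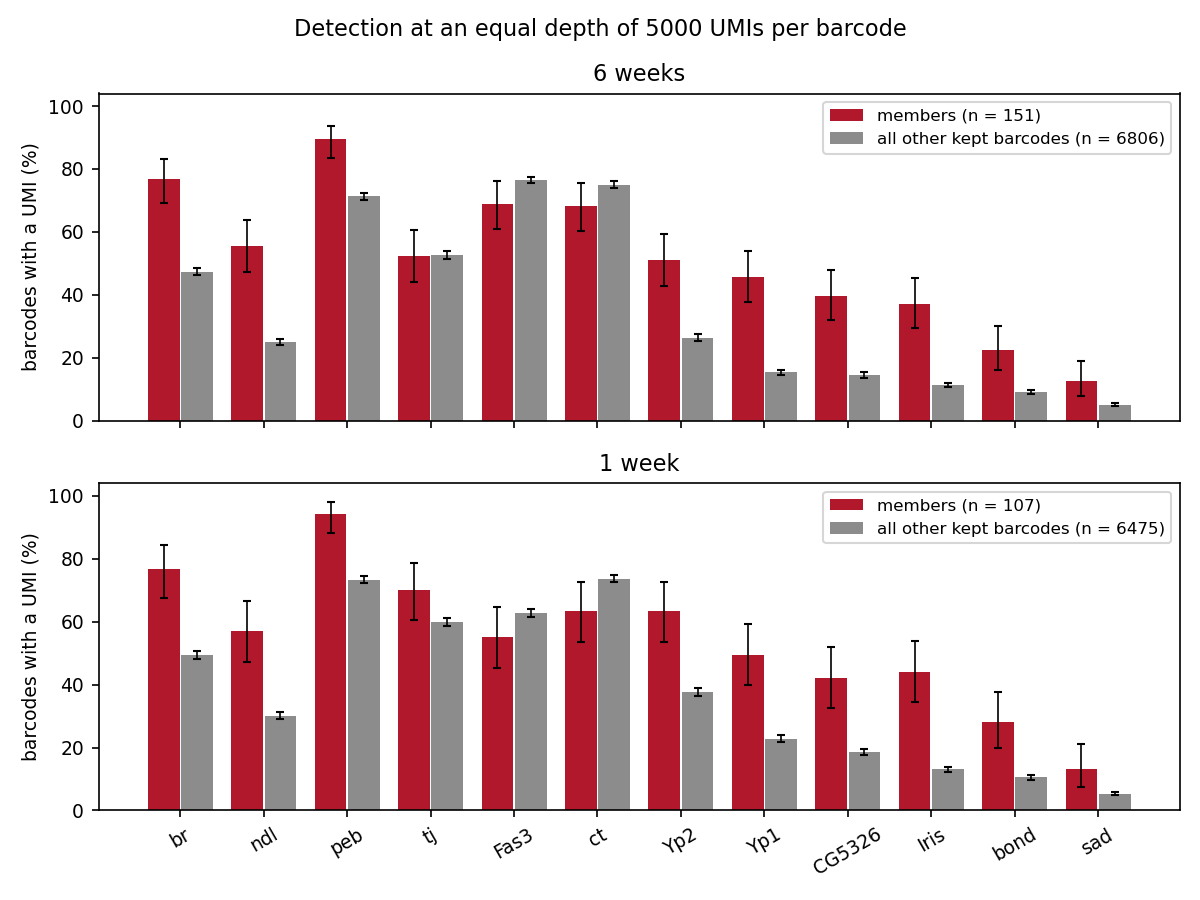
Percent of barcodes with a UMI (y axis) of 12 genes (x axis) after thinning to 5000 UMIs at 6 weeks (top) and 1 week (bottom), in members (red) and all other kept barcodes (grey); bars with whiskers are shares with Clopper-Pearson 95% intervals. br was detected in 76.8% of members at 6 weeks and 76.6% at 1 week and ndl in 55.6% and 57.0%, above the rest. For tj the members' interval includes the share of the rest at 6 weeks but not at 1 week (70.1% against 59.9%).

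peb (hindsight), a target of Notch at the end of follicle cell division, was detected after thinning in 89.4% of members against 71.3% of the rest at 6 weeks and 94.4% against 73.3% at 1 week. Its partner in that switch, ct (cut), which Notch turns down, had 293 CPM in members against 654 in the rest at 6 weeks and 304 against 617 at 1 week (log2 -1.16 and -1.02). Fas3, an adhesion protein that is strong in young follicle cells, was lower by a like amount, with 389 against 780 CPM at 6 weeks and 249 against 495 at 1 week. EcR, the ecdysone receptor gene, was higher in members by log2 0.51 and 0.70. For peb, near barcodes had 86.3% at 1 week after thinning, between the members and the rest. Of 3 genes listed as Notch-responding in follicle cells, 1 was higher and 2 lower in members in both libraries (medians -0.47 and -0.44). Of 10 listed Notch genes, 2 were higher and 7 lower in both, 3 of them at least 2-fold lower (medians -0.39 and -0.18). By median neither list was thus higher in members.

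Genes of cell division were lower. All 9 listed mitosis genes were lower in members than in the rest in both libraries, 4 of them at least 2-fold (19.2% of all genes). The list median was log2 -1.40 at 6 weeks and -0.87 at 1 week against -0.41 and -0.40 for all genes. Barcodes with zfh1, a gene of stem and escort cells, made up 23.2% of the rest at 6 weeks and 23.0% at 1 week. The rule left them out of the members, and the part of that choice in the low mitosis genes, ct and Fas3 was not tested. CycB, the mitotic cyclin B gene, had 21 and 18 UMIs over all members, or 5.23 CPM in members against 28.3 in the rest at 6 weeks and 7.65 against 32.8 at 1 week. fzr, which targets mitotic cyclins for destruction and is needed for the endocycle, was higher by log2 0.35 (0.17 to 0.52) and 0.32 (0.10 to 0.54), and CycE by 0.20 (-0.17 to 0.55) and 0.27 (-0.19 to 0.69), where the intervals included 0. Of the 7 endocycle genes, 5 were lower in both libraries and 2, fzr and CycE, higher. Their medians were -0.22 at 6 weeks and -0.20 at 1 week, less low than the medians of all genes.

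Relatives of Ekar and nAChRalpha6 had few or no UMIs in the members. Among 15 ionotropic glutamate receptor genes found, Ekar included, 6 had no UMI in any member, and of 8 tested 6 were at least 2-fold lower in members in both libraries (19.2% of all genes). The gene of this list that was higher in both, GluRIIB, had 3 UMIs in members at 6 weeks and 1 at 1 week. KaiR1D, another kainate receptor gene, had 1 UMI in members at 6 weeks and 0 at 1 week, Grik had 0 in both, and CG11155 had 25 UMIs at 6 weeks and 9 at 1 week (log2 -2.17 and -2.31 against the rest). Among 10 nicotinic receptor genes, 3 had no UMI in any member. nAChRalpha3 had 13 UMIs over all members at 6 weeks and 12 at 1 week, nAChRalpha4 had 11 and 15, and nAChRbeta1 had 1 and 4. Taking 3 UMIs as the limit that a count of 0 allows, a gene at 0 could lie at up to 0.748 CPM in members at 6 weeks and 1.27 CPM at 1 week, among 4011706 and 2353259 UMIs summed over members.

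Of 21 dpr genes, 11 had no UMI in any member. dpr1 had 33 UMIs at 6 weeks and 28 at 1 week, and dpr8 had 93 and 36, at log2 -0.46 and -0.63 against the rest. DIP-alpha, a receptor of dpr proteins, had 2882 CPM in members against 6132 in the rest at 6 weeks and 3373 against 6763 at 1 week, and was detected after thinning in 93.4% and 93.5% of members. It was therefore lower in members while still detected in nearly all of them, as it was in the rest (95.3% after thinning at 1 week). Of 15 listed actin bundle and bristle genes, the group of jv, none was at least 2-fold higher and 2 of the 14 tested were at least 2-fold lower in both libraries (19.2% of all genes). The list medians of -0.43 at 6 weeks and -0.44 at 1 week were close to those of all genes.

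Leading genes chosen in one library were then counted in the other, so that choice and count used different cells. The 20 genes with the highest ratio in the 1-week members were detected at a median of 3 per thinned member at 6 weeks, 2 per near barcode and 1 per barcode without Ekar. At least 10 of them were present in 9.93% of members, 2.86% of near barcodes and 1.20% of barcodes without Ekar. The 20 genes chosen at 6 weeks gave medians of 5, 3 and 2 at 1 week, with at least 10 present in 17.8%, 8.93% and 2.11%. The lists had 11 genes in common. Members therefore carried more of the leading genes in the other library, and 43.7% of members at 6 weeks and 28.0% at 1 week had at most 2 of them.

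**Figure D4:**
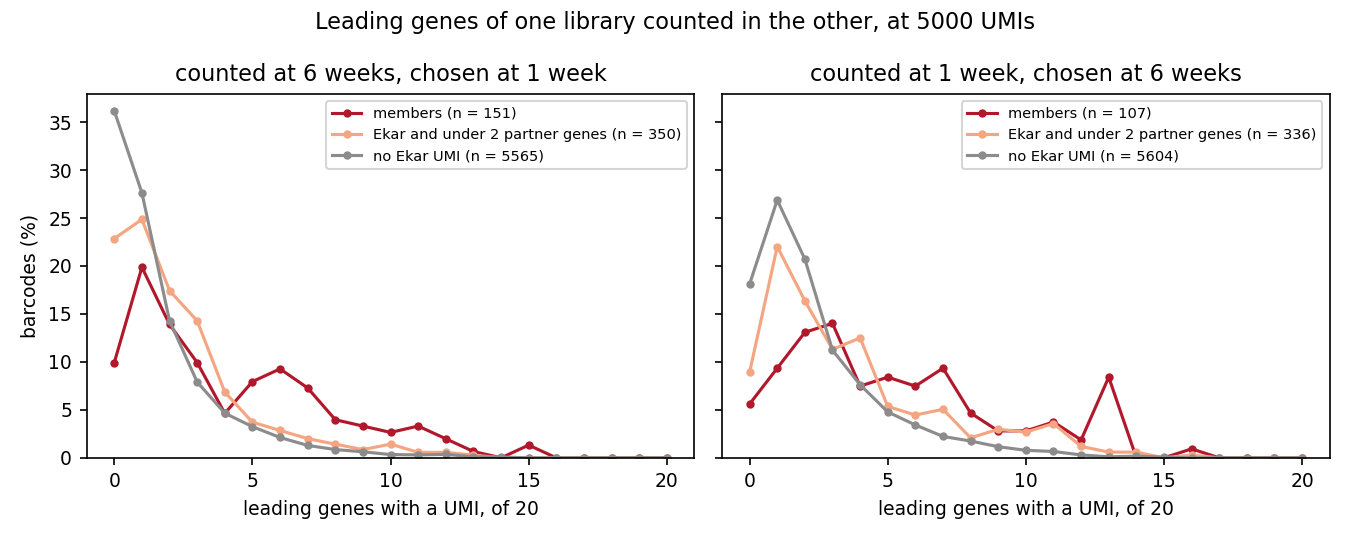
Percent of barcodes (y axis) by the number of 20 leading genes, chosen in the other library, of which they had a UMI (x axis, after thinning to 5000 UMIs) at 6 weeks (left) and 1 week (right), in members (red), near barcodes (orange) and barcodes without Ekar (grey). Members are shifted to the right, with medians of 3 against 1 without Ekar at 6 weeks and 5 against 2 at 1 week.

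Within the members, yolk protein RNA and the other genes did not go together alike. Over the 173 members at 6 weeks and 125 at 1 week, which share a library and differ in depth, Spearman's rho of summed yolk protein level was 0.60 and 0.61 with bond, 0.43 and 0.27 with sad and 0.35 and 0.26 with the UMIs of the barcode. It was -0.17 and -0.19 with br. Yolk protein level thus went with bond. No value is given for Ekar, since nearly all members had 1 or 2 Ekar UMIs by the rule and its scaled level follows the depth of the barcode.

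Between ages the members differed by at least 2-fold in few genes. Of 5694 genes with at least 30 UMIs over the members of both libraries, 62 (1.09%) were at least 2-fold higher and 73 (1.28%) at least 2-fold lower at 6 weeks than at 1 week, around a median of log2 0.01. In all other kept barcodes the same genes gave 7 (0.123%) higher and 17 (0.299%) lower. Of the 135 genes, 105 had under 100 UMIs, 94 had over 50% of their UMIs of the higher library in 10 members, 103 went the same way in the rest and 15 were also at least 2-fold apart there.

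Among genes with at least 200 UMIs over the members and not carried by a few of them, CG32512 and Pgd were the highest. CG32512 had 145 CPM in members at 6 weeks against 62.0 at 1 week, a log2 ratio of 1.23 (0.96 to 1.50) beside 1.47 in the rest. Pgd, an enzyme of the pentose phosphate pathway, had 78.0 against 34.4 CPM, a log2 ratio of 1.18 (0.82 to 1.55) beside 0.53 in the rest. CG5346 (0.96, rest 0.77), AdamTS-A, an extracellular metalloprotease gene (0.94, rest 0.89), CG9932 (0.91, rest 0.41) and SCaMC, a mitochondrial carrier gene (0.88, rest 0.72), followed under 2-fold. All 6 were higher at 6 weeks in the rest as well.

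Among these same genes of at least 200 UMIs that were not carried by a few members, Drat had the lowest ratio. It had 92.0 CPM in members at 6 weeks against 183 at 1 week, log2 -0.99 (-1.20 to -0.79) beside -0.34 in the rest. Sirup, an assembly factor of succinate dehydrogenase, had 425 against 790 CPM (-0.90, rest -0.44). CG3764 (-0.81, rest -0.13), Ttd14 (-0.79, rest -0.54), nAChRalpha6 (-0.78, rest -0.45) and CG10365 (-0.78, rest -0.39) followed. nAChRalpha6 was used to choose members in both libraries, and its value is given as a description.

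**Figure D5:**
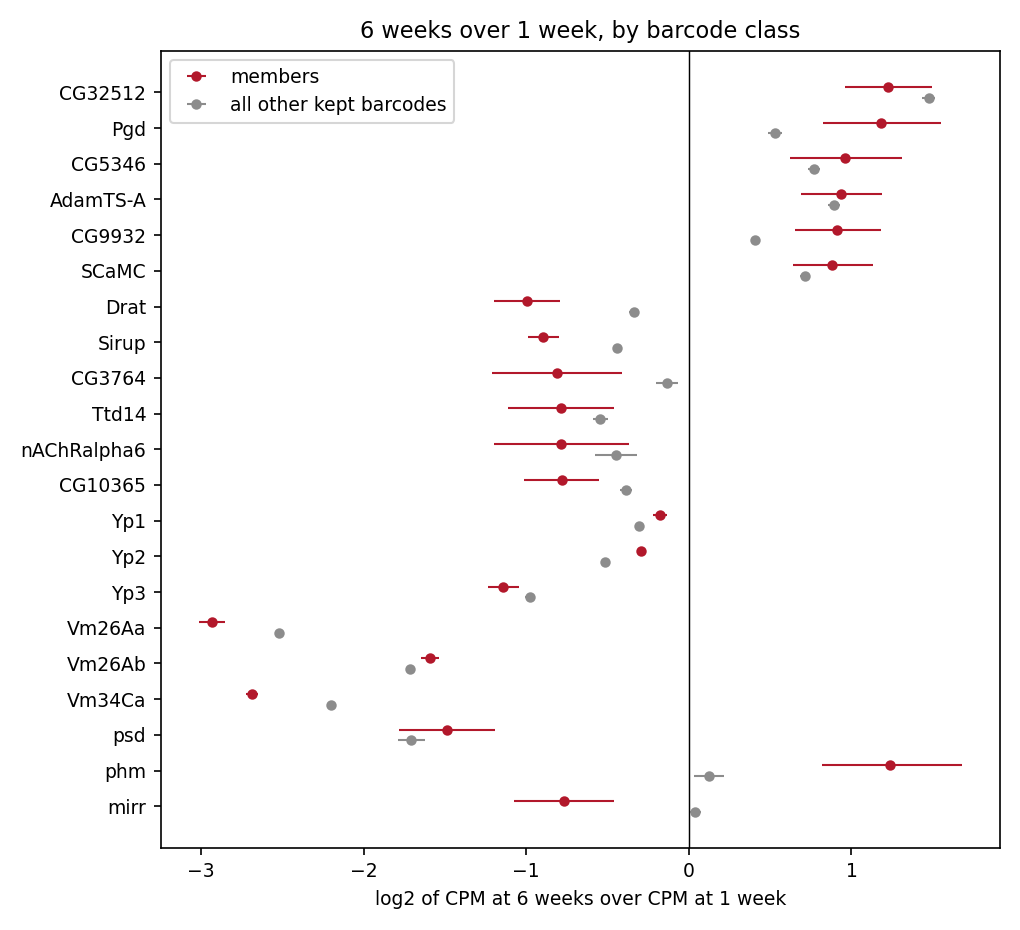
Log2 ratio of summed CPM at 6 weeks over 1 week (x axis) of the named age genes, yolk protein and vitelline membrane genes, phm and mirr (y axis), in members (red) and all other kept barcodes (grey); lines are exact 95% intervals and the vertical line is equality. CG32512 is at 1.23 in members and 1.47 in the rest, and Drat at -0.99 and -0.34.

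Yolk and eggshell genes were lower at 6 weeks. Yp2 stood at log2 -0.29 in members and -0.52 in the rest, Yp1 at -0.18 and -0.31, and Yp3 at -1.14 and -0.98. All 6 tested vitelline membrane genes were at least 2-fold lower at 6 weeks in members, beside 1.28% of all genes tested. Their median was -2.81 in members and -1.96 in the rest. The 10 top members held 99.1% of the Vm26Aa UMIs at 6 weeks and 97.9% at 1 week, but 76.4% and 91.9% of those of psd and 59.3% and 69.4% of those of Yp2. Among the hormone genes phm was at 1.24 in members beside 0.12 in the rest, with 69.1% of its 6-week UMIs in 10 members, sad at -0.37 (-0.76 to 0.03), spo at -0.35 (-0.66 to -0.05) and shd at 0.51 (-0.05 to 1.09).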

How the data were processed

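Ovaries at 6 weeks and 1 week were profiled by 10x Genomics single-cell RNA-seq, 1 library per age. The authors deposited UMI counts per gene and barcode, made with Cell Ranger (version 9.0.0 in the submitters' processing notes) on BDGP6, without normalization; no deposited barcode had under 500 UMIs. Free RNA was not corrected for. Coordinates come from the BDGP6 annotation of Ensembl release 115, which matched 13879 of 13942 gene identifiers. UMIs were summed over members and over other barcodes of a library and scaled to 1000000 (CPM). Genes with at least 30 UMIs over both sides were used, a gene was counted at a 2-fold ratio, and ratios had exact binomial intervals. Members and gene lists were chosen with earlier results of these data known.

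Named genes were those of the rule, the 15 highest of genes in at least 25% of members, the 5 lowest of genes in at least 25% of other barcodes, the 6 highest and 6 lowest age ratios among genes with at least 200 UMIs and at most 50% of them in 10 members, and list genes. Alternatives changed the filter on cells, the rule, the gene minimum, depth and the barcodes compared. The code ran on simulated counts first. Python 3.11.15, numpy 2.4.6, scipy 1.17.1, pandas 2.3.3 and matplotlib 3.10.9 were used.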

Additional observations from a re-analysis of the deposited data

Results flagged for a closer look

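For 6 of 190 listed genes, the counting intervals of the age ratio lay on opposite sides of 0 in members and in all other kept barcodes. The differences between members and rest were not tested. The log2 ratio of 6 weeks over 1 week was -0.77 in members and 0.04 in the rest for mirr (179 UMIs in members at each age), a gene of anterior and dorsal patterning in follicle cells. It was -0.98 and 0.20 for aurB, a mitotic kinase gene with only 19 and 22 UMIs in members. Smaller gaps were seen for Eip75B, an ecdysone-induced nuclear receptor gene (-0.092 in members, 0.08 in the rest), for the heat shock genes Hsp27 (0.19 and -0.11) and Hsp68 (0.12 and -0.05), and for mt:ND5, a mitochondrially encoded subunit of complex I (0.20 and -0.03).

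Barcodes outside the filter on cells also met the gene rule, 91 at 6 weeks and 156 at 1 week. Of these, 87 and 144 failed the limit on mitochondrially encoded UMIs alone. Their median mitochondrial share was 31.2% at 6 weeks and 35.7% at 1 week.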

How the results depend on the processing

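The share of members was 1.75% at 6 weeks and 1.37% at 1 week. It was 1.44% at 6 weeks with at most 10% mitochondrial UMIs, 1.88% at 1 week with no such limit, 0.456% and 0.329% with at least 2 Ekar UMIs, 0.456% and 0.372% with at least 3 partner genes, 0.810% and 0.690% without CG42700, 4.97% and 3.35% without the excluded genes, and 0.589% and 0.395% after thinning. The log2 ratio of shares stayed between 0.06 and 0.58 in the alternatives run. Genes at least 2-fold apart by age numbered 62 higher and 73 lower. The totals, over genes that need not be these, became 112 lower without the mitochondrial limit, 96 higher and 153 lower without the excluded genes, 12 and 18 with at least 100 UMIs, and 333 and 485 with 1 UMI on each side. The total of genes higher in members than in the rest, 81, became 49 at 10% mitochondrial UMIs or at 100 UMIs, 131 without the mitochondrial limit, 123 without barcodes above the 95th percentile and 145 with 1 UMI on each side, where 864 were lower. Chosen after seeing the data, the mean over barcodes gave 139 and 176 by age and 197 higher in members, and the comparison with tj-positive barcodes 280 lower. Barcodes with at least 10 of 20 transferred genes (9.93% of members at 6 weeks and 17.8% at 1 week) became 32.4% and 40.0% without thinning, and with 5 of 10 genes 21.2% and 31.8%. All 480 values of 40 named ratios of members over rest and 120 values of 12 age ratios kept their sign, while 44 of 444 and 2 of 20 values of 2-fold ratios fell under 2-fold. The causes were not tested. No paired analysis was possible because each age is 1 library. Genes under 100 UMIs rest on few counts, and leaving out a replicate was not possible.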

Other observations

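Of the stress and signalling lists, those of JNK signalling and heat shock were near all genes, of which 19.2% were at least 2-fold lower in members in both libraries. All 11 listed genes of JNK signalling were lower in both libraries, with medians of log2 -0.51 at 6 weeks and -0.38 at 1 week, close to the median of all genes (-0.41 and -0.40). Only Mmp1, a matrix metalloprotease gene (-2.11 and -2.72), and Ets21C, a transcription factor gene induced by stress (-1.24 and -1.02), were at least 2-fold lower in both. Of 9 JAK/STAT genes 8 were lower in both libraries and 4 at least 2-fold, with medians of -0.82 and -0.75. Heat shock genes were lower in 10 of 11 cases, with medians of -0.57 and -0.58, and 1 passed 2-fold.

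Some age ratios in the members came from very few cells. CG15721 had 416 UMIs over members at 6 weeks against 12 at 1 week, with 98.8% of the 6-week UMIs in 10 members. dec-1, an eggshell gene, had 11 UMIs at 6 weeks against 212 at 1 week, with 99.1% of the 1-week UMIs in 10 members. Of 2519 genes with at least 200 UMIs over members of both ages, 95 had over 50% of them in 10 members of the higher library.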
